A study of Mus musculus with 10 samples.

Results

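The 31 genes described here make cholesterol and fatty acids or control that synthesis: 15 sterol pathway enzymes, 12 genes of the fatty acid branch, the 3 regulators Srebf1, Srebf2 and Insig1, and the sterol carrier Stard4. They were taken by name from 34717 gene names on the arrays, each gene being read by its brightest probe. All 31 were among the 22596 genes tested, and each of the probes used was well above background on all 10 arrays. Members and lists were chosen with earlier results of these data known, so lists are described by counts and medians and carry no test of their own.

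Total RNA of mouse mesenchymal stem cells (MSC, stromal cells that can form bone and fat) on an FVB background was measured on 10 single-colour arrays, 2 duplicate cultures in each of 5 groups. Wild-type MSC came from adipose tissue (ASC) or from bone marrow (BM-MSC). Null ASC and null BM-MSC carried loxP-flanked Rb and p53 genes, were held in osteogenic medium for 10 days, and then lost both genes to an adenovirus in which the CMV promoter drives Cre recombinase (Ad-CMV-Cre). The fifth group was a tumor line established from a tumor that such null BM-MSC formed under the skin of NSG mice, so its 2 cultures are 1 line. All 5 groups were grown in the same MSC medium and taken in exponential growth. The loss of both genes, the virus and the osteogenic step were applied together, and their parts in any difference between null and wild-type cells cannot be told apart.

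Cholesterol is built from acetyl-CoA through mevalonate, isoprenoid diphosphates, squalene and lanosterol, and fatty acids from acetyl-CoA through malonyl-CoA, followed by elongation and desaturation. Most enzymes of both branches are targets of the transcription factors SREBP1 (gene Srebf1) and SREBP2 (gene Srebf2). These are held in the endoplasmic reticulum by SCAP and INSIG proteins while sterol is plentiful, and are cut free and move to the nucleus when sterol falls. SREBP2 mainly drives the sterol enzymes and the main SREBP1 form in liver the fatty acid enzymes, usually together with NF-Y, which binds CCAAT boxes, and Sp1, which binds GC boxes.

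Promoter stretches are shown for genes that moved alike or apart below, because the members share promoter letters that the choice of genes did not use. RefSeq promoters (GRCm38.p6, 250 bases before to 50 after each annotated start) were found for 24 of the 31 members, which had 30 promoters in all. The letters CCAAT, on either strand, were present in a promoter of all 12 matched sterol enzymes, of 6 of 9 matched fatty acid genes and of 3 of 3 regulators, against 41.1% of all 27025 genes with a promoter. Counted by promoter, CCAAT was in 80% of those of the sterol enzymes, 60% of those of the fatty acid branch and 37.4% of all 32851. The GC box letters GGGCGG were present for 11 of 12 sterol enzymes and 4 of 9 fatty acid genes, against 38.2% of all genes. A sterol regulatory element spelled TCACNCCAC was found for Hmgcs1 alone among the 24 matched members (1.44% of all genes). Its shorter form CACNCCAC, which lies inside it, was found for Hmgcs1 and Insig1 (7.12% of all genes). The sterol enzymes Fdft1, Fdps and Sqle had no promoter to search. These matches describe letters in a window and do not show binding.

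The 6 stretches below are the 200 bases before the annotated start, 5′ to 3′ on the gene's strand, with capitals for CCAAT on either strand (ATTGG is its reverse complement) and, in Hmgcs1, also for CACNCCAC. Hmgcs1, Idi1, Lss and Tm7sf2 are sterol enzymes with the box. Fasn, with 3 matches of which 2 overlap, and Acacb, with 1, are fatty acid genes whose changes had opposite signs in null BM-MSC. The fall of Acacb was small and its call was not stable, as given below.
Hmgcs1 (chr13:119690151-119690350, plus strand): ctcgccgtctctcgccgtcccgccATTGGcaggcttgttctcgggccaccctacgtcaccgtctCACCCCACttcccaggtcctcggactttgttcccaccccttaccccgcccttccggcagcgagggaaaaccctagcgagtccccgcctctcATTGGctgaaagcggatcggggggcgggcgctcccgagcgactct
Idi1 (chr13:8885406-8885605, plus strand): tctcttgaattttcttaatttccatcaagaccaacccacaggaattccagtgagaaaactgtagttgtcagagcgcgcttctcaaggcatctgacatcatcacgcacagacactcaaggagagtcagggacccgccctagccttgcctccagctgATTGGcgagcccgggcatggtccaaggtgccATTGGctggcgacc
Lss (chr10:76531405-76531604, plus strand): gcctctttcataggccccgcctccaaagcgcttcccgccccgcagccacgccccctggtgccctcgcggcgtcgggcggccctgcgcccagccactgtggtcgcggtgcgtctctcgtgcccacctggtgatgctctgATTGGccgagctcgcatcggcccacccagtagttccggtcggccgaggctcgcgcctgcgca
Tm7sf2 (chr19:6067851-6068050, minus strand): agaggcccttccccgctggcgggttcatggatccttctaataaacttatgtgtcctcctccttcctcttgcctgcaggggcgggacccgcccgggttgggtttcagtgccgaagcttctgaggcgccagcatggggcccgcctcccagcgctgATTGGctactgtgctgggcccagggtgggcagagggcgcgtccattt
Fasn (chr11:120824548-120824747, minus strand): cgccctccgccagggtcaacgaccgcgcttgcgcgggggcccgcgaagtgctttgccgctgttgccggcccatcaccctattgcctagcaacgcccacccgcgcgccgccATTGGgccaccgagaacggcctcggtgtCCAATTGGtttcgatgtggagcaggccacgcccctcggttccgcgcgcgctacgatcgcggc
Acacb (chr5:114165318-114165517, plus strand): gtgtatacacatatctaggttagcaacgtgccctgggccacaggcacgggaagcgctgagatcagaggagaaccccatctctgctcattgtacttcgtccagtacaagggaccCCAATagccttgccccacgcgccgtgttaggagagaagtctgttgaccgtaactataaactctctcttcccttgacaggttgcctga
Counted from the start, the nearest upstream match began at -45 in Hmgcs1, -14 in Idi1, -62 in Lss, -47 in Tm7sf2, -59 in Fasn and -87 in Acacb.

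Levels below are log2 signal relative to the 75th percentile of the same array, so 0 is that percentile and 1 unit is a factor of 2. They compare one gene between groups and not one gene with another. Changes are differences of group means with the standard error (SE) of a single limma model of all 10 arrays, and called means a Benjamini-Hochberg adjusted p under 0.05 over all genes tested. Duplicate arrays of a group correlated at r = 0.994 to 0.996 across genes, and the largest difference of a member between duplicates was 0.34. In wild-type BM-MSC, 4 of the 31 members were higher on the second array, with a median difference between arrays of -0.06.

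As a check of the labels, Rb1 read 1.31 on both wild-type ASC arrays, 1.90 and 1.92 in wild-type BM-MSC, -1.91 and -1.97 in null ASC, 0.65 and 0.54 in null BM-MSC and -1.98 and -1.97 in the tumor line. Trp53 read 1.11 and 1.01, 0.83 and 0.71, -4.49 and -5.12, -0.89 and -1.12, and -7.57 and -7.59 in the same order. Both genes were lower in every null group, least so in null BM-MSC, and whether the probes lie in the deleted parts was not determined. All 10 mesenchymal stromal markers were well above background in every array, but their levels differed between groups. In null BM-MSC 2 rose and 4 fell, and likewise in null ASC, where 39.5% and 41.5% of all genes were called. Against null BM-MSC, 5 were higher and 4 lower in the tumor line, where 69.6% of all genes were called. Their part in the members' changes was not tested. Of the defining adipocyte markers, Lep and Cfd were well above background on no array, Adipoq on 1 and Plin1 on 3, but other adipocyte markers were measured, and 7 to 10 of 10 macrophage markers and 3 to 4 of 6 endothelial markers were well above background on each array. Ptprc, the general blood cell marker, read -5.71 to -4.98, and Cdh5, an endothelial cadherin, was well above background on no array. In bulk RNA, fewer cells of a type and less RNA per cell cannot be told apart.

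**Figure D1:**
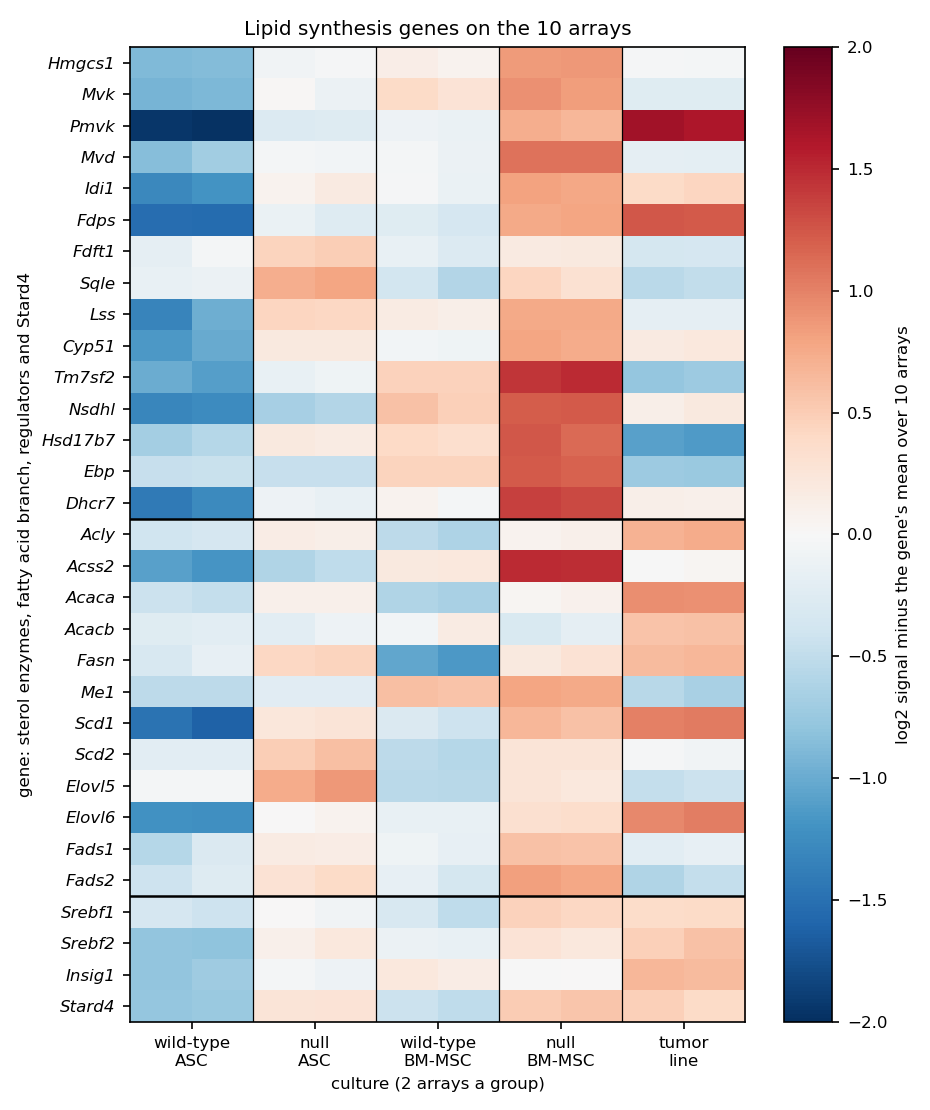
Log2 signal of each of the 31 genes on each of the 10 arrays, minus that gene's mean over the arrays (colour, red high, blue low; the scale ends at 2 on either side), with the sterol enzymes in pathway order, the fatty acid branch, and the regulators with Stard4 from top to bottom. Wild-type ASC is lowest for 18 of the 31 genes, against 9.98% of all genes tested, and null BM-MSC highest for 17, against 10.6%. The tumor line is highest for 10, among them Acaca, Acly, Elovl6 and Scd1, against 23.8% of all genes.

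The first comparison set the BM-MSC labelled Rb-/-p53-/-, which kept part of the Rb1 and Trp53 signal, against wild-type BM-MSC. Nearly the whole pathway was higher in the null cells: 29 of 31 members rose and 2 fell, where 39.5% of all genes tested were called, 19.1% higher and 20.4% lower. All 15 sterol enzymes rose, by 0.40 to 1.33 (log2), with a median of 0.82 where the median of all genes was 0.0035. In the fatty acid branch 11 of 12 genes rose and the median was 0.74. Changes of at least 2-fold were seen for 8 members, against 8.18% of all genes.

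Dhcr7, the enzyme of the last reductive step to cholesterol, read 1.44 and 1.34 in wild-type BM-MSC and 2.74 and 2.70 in null BM-MSC. The change was 1.33 ± 0.06 (SE, n = 2 and 2; adjusted p = 3.04e-05), or 2.51-fold. Its probe lies at chr7:151033874-151033933 (mm9). Mvd, which decarboxylates mevalonate diphosphate to the first isoprenoid, went from 2.93 and 2.85 to 4.05 and 4.04, a change of 1.16 ± 0.06 (adjusted p = 3.58e-05). Fdps, which makes farnesyl diphosphate, went from 5.69 and 5.60 to 6.69 and 6.71, a rise of 1.06 ± 0.06 (adjusted p = 4.58e-05). For all 3 genes the null arrays lay above both wild-type arrays by several times the gap between duplicates. They were named for their large changes, so this separation is no added support. The smallest rise was that of Fdft1, squalene synthase, at 0.40 ± 0.06 (adjusted p = 0.00324), and its dimmer second probe rose by 1.00.

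The fatty acid genes were led by Fasn, the synthase that builds palmitate, with levels of -0.62 and -0.73 in wild-type and 0.61 and 0.71 in null BM-MSC. It rose by 1.34 ± 0.07 (adjusted p = 4.44e-05), or 2.53-fold, at a probe on chr11:120667666-120667725 (mm9). Acss2, which makes acetyl-CoA from acetate, rose from 1.65 and 1.67 to 2.94 and 2.93, by 1.28 ± 0.05 (adjusted p = 1.75e-05). Fads2, a desaturase of polyunsaturated fatty acids, rose from 0.79 and 0.61 to 1.78 and 1.73, by 1.05 ± 0.09 (adjusted p = 0.000247). The duplicates of these genes did not overlap between groups, which their choice by large change made likely beforehand. The stearoyl-CoA desaturases Scd1 and Scd2 rose by 0.97 ± 0.07 and 0.80 ± 0.05, the elongase Elovl5 by 0.78 ± 0.05 and Acaca, the acetyl-CoA carboxylase of fatty acid synthesis, by 0.69 ± 0.04.

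Acacb, the carboxylase whose malonyl-CoA restrains fatty acid import into mitochondria, was the exception in this branch, at 1.02 and 1.24 in wild-type and 0.76 and 0.89 in null BM-MSC. It fell by 0.30 ± 0.09 on the log2 scale (adjusted p = 0.0319), a call that was lost in 11 of 21 alternatives, leaving out any single array except the first wild-type BM-MSC array and the null ASC arrays among them (adjusted p from 0.0084 to 0.156 over all). Me1, the malic enzyme that supplies NADPH, rose by only 0.18 ± 0.05 (adjusted p = 0.0255), and 10 of 21 alternatives ended that call, each omission of a BM-MSC array included, with adjusted p up to 0.179. A second Me1 probe of near equal brightness changed by -0.05.

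Among the regulators, Srebf1 went from -1.82 and -2.01 to -1.04 and -1.08 in BM-MSC, a rise of 0.86 ± 0.08 (adjusted p = 0.000299). Srebf2 went from 1.63 and 1.60 to 2.02 and 1.96 and rose by 0.38 ± 0.06 (adjusted p = 0.0027). Insig1, a brake on SREBP release and itself a known SREBP target, did not rise with the enzymes: it read 0.51 and 0.44 in wild-type and 0.29 and 0.30 in null cells. That is a change of -0.18 ± 0.05 (adjusted p = 0.0322), a call lost in 13 of 21 alternatives, among them the omission of any single BM-MSC or tumor line array (adjusted p up to 0.276 over all). Stard4, a carrier that moves sterol between membranes, went from 1.47 and 1.39 to 2.41 and 2.45 and rose by 1.00 ± 0.05 (adjusted p = 3.44e-05).

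The same comparison in ASC gave a rise of nearly the same breadth. There 29 of 31 members rose, none fell and 2 were not called, where 41.5% of all genes were called, 20.5% higher and 20.9% lower. Of the sterol enzymes 14 of 15 rose (median 0.88, all genes -0.02), and of the fatty acid branch 11 of 12 (median 0.63). At least 2-fold changes were seen for 9 members, against 9.07% of all genes.

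Pmvk, phosphomevalonate kinase, read 2.96 and 2.93 in wild-type ASC and 4.64 and 4.65 in null ASC. It rose by 1.70 ± 0.05 (adjusted p = 4.65e-06), or 3.25-fold, at chr3:89272867-89272926 (mm9). Lss, which closes squalene epoxide into lanosterol, rose from 0.38 and 0.71 to 2.12 and 2.11, by 1.57 ± 0.10 (adjusted p = 6.95e-05), and Idi1, isopentenyl diphosphate isomerase, from 2.24 and 2.33 to 3.61 and 3.71, by 1.37 ± 0.06 (adjusted p = 2.00e-05). In each case both null arrays stood above both wild-type arrays, as their choice by large change made likely. Ebp, a sterol isomerase late in the pathway, was the only sterol enzyme not called: all 4 ASC arrays lay between 5.83 and 5.84, and the change was -0.0033 ± 0.04 (adjusted p = 0.958). Fdft1 rose by 0.58 ± 0.06 at the probe used, but by -0.10 at its dimmer second probe, and averaging both gave 0.24 (adjusted p = 0.129).

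Scd1, the desaturase that makes oleate, had the largest change of all members in ASC, from 1.57 and 1.43 to 3.26 and 3.30. It rose by 1.78 ± 0.07 (adjusted p = 1.36e-05), or 3.44-fold, at chr19:44469387-44469446 (mm9). Elovl6, which elongates palmitate, rose from 2.04 and 2.03 to 3.26 and 3.31, by 1.25 ± 0.05 (adjusted p = 1.07e-05), and Elovl5 from 3.30 and 3.29 to 4.08 and 4.20, by 0.84 ± 0.05 (adjusted p = 6.80e-05). The groups did not overlap for these 3 genes, which were likewise named for their large changes. Fasn rose less in ASC, by 0.67 ± 0.07, and Acacb, with 0.83 and 0.86 in wild-type and 0.87 and 0.97 in null ASC, was not called (0.07 ± 0.09, adjusted p = 0.546).

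All 3 regulators rose in ASC. Srebf2 went from 0.96 and 0.95 to 1.85 and 1.96 (0.95 ± 0.06, adjusted p = 5.15e-05) and Insig1 from -0.50 and -0.42 to 0.25 and 0.18 (0.68 ± 0.05, adjusted p = 0.000122). Srebf1 went from -1.83 and -1.92 to -1.49 and -1.58 (0.34 ± 0.08, adjusted p = 0.0122), and without the second wild-type or the first null array its adjusted p was 0.0637 or 0.0689. Stard4 rose from 1.13 and 1.16 to 2.16 and 2.18, by 1.03 ± 0.05 (adjusted p = 2.52e-05), nearly its change in BM-MSC.

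**Figure D2:**
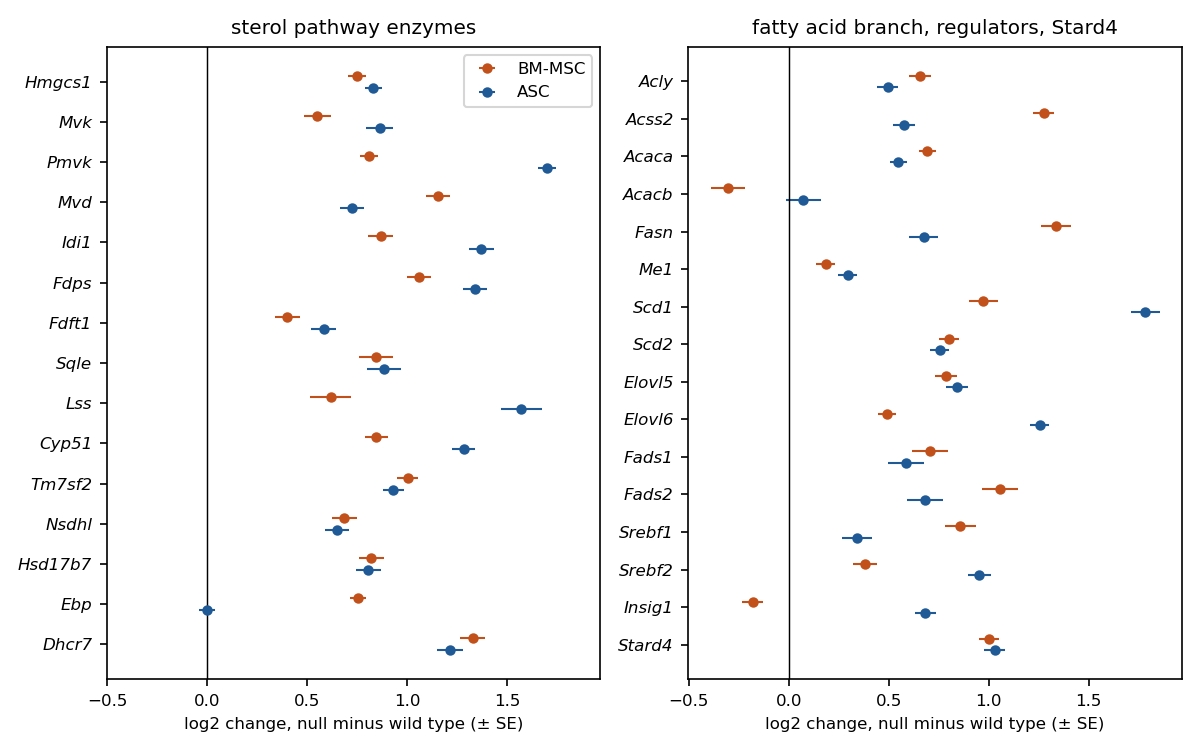
Log2 change from wild-type to null cells (x axis, ± SE, 2 arrays a group) of each gene in BM-MSC (orange) and ASC (blue), with the sterol enzymes on the left and the other members on the right. Nearly all points lie to the right of 0; Acacb and Insig1 lie left of 0 in BM-MSC only, Ebp sits at 0 in ASC only, and Pmvk, Lss, Scd1 and Elovl6 lie farther right in ASC.

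The change itself differed between the tissues for 15 members, 5 with a larger value in BM-MSC and 10 in ASC. Over all genes 31.8% were called in this interaction, 15.0% higher and 16.8% lower in BM-MSC. Among the sterol enzymes Lss (-0.95 ± 0.15, adjusted p = 0.00377) and Pmvk (-0.89 ± 0.06, adjusted p = 0.000218) changed more in ASC, and Ebp (0.76 ± 0.06, adjusted p = 0.00026) changed more in BM-MSC. Acss2 (0.70 ± 0.08) and Fasn (0.66 ± 0.10) changed more in BM-MSC, and Scd1 (-0.81 ± 0.10) and Elovl6 (-0.76 ± 0.07) more in ASC. The regulators split as well: the difference was 0.52 ± 0.11 for Srebf1 (adjusted p = 0.0131), -0.57 ± 0.08 for Srebf2 (adjusted p = 0.00295) and -0.86 ± 0.07 for Insig1 (adjusted p = 0.000385). For Stard4 it was -0.03 ± 0.07. The Rb1 and Trp53 signals given above fell less in BM-MSC than in ASC, and their part in these differences was not tested. Scaling each array to its median in place of its 75th percentile left 9 of the 15 calls, 4 higher and 5 lower in BM-MSC.

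Of 7 other sterol synthesis genes, 6 rose in BM-MSC and 5 in ASC, where 1 fell, against 19.1% and 20.5% of all genes higher. Lbr, a sterol reductase and lamin receptor, rose by 0.94 ± 0.06 and 1.04 ± 0.06. The gene that fell in ASC was Ggps1 (-0.42 ± 0.07, adjusted p = 0.00335), whose product feeds protein prenylation and not sterol. Of 8 genes of sterol uptake and trafficking, 3 rose in BM-MSC, and 4 rose and 3 fell in ASC, where 39.5% and 41.5% of all genes were called in either direction. The risers in both included Lrp8, a lipoprotein receptor (0.72 ± 0.12 and 1.33 ± 0.12).

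Of 10 fatty acid oxidation genes, 5 fell and 1 rose in null BM-MSC, where 20.4% of all genes were lower, and 9 fell and none rose in null ASC, where 20.9% were lower. The carnitine palmitoyltransferase Cpt1a, which admits fatty acids to mitochondria, changed by -0.72 ± 0.07 (adjusted p = 0.000334) in BM-MSC and -1.37 ± 0.07 (adjusted p = 2.31e-05) in ASC. Cpt1c changed by -1.05 ± 0.05 and -1.15 ± 0.05. The gene that rose in BM-MSC was Ppara, a nuclear receptor that activates oxidation genes (0.58 ± 0.11, adjusted p = 0.00806).

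Proliferation markers moved with these comparisons. Of 9 measured of 10 listed, 8 rose in null BM-MSC and 9 in null ASC, against 19.1% and 20.5% of all genes. Their summed linear signal, as a percent of the array's 75th percentile, was 8316 to 8960.4 in wild-type ASC, 23223 to 23571 in null ASC, 10745 to 11531 in wild-type BM-MSC, 18809.9 to 19263 in null BM-MSC and 26548 to 26643 in the tumor line. Their part in the members' changes was not tested. For markers of other cell types, the share of all genes called was 39.5% in BM-MSC and 41.5% in ASC. In the same order, 57.1% and 42.9% of the adipocyte markers measured were called. For macrophage markers it was 70% and 40%, and for endothelial markers 25% in both. Of 7 adipocyte markers measured, 1 rose and 3 fell in null BM-MSC, and 3 rose and none fell in null ASC. Fabp4, a fatty acid carrier of fat cells, read 2.11 and 1.80 in wild-type and -2.09 and -2.26 in null BM-MSC (-4.13 ± 0.12), and -0.11 and -0.23 in wild-type and 0.43 and 0.58 in null ASC (0.68 ± 0.12). Of 10 macrophage markers, 2 rose and 5 fell in null BM-MSC, and none rose and 4 fell in null ASC, with a summed signal of 2915 to 2947% in wild-type and 2349 to 2449% in null BM-MSC, and 2946 to 3430.2% in wild-type and 1692 to 1803% in null ASC. Of 4 endothelial markers measured, 1 fell in each tissue. The part of these markers in the members' changes was not tested. The wild-type arrays lay in one line of positions on the slide and the null arrays in the other, so position and genotype cannot be told apart.

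In wild-type cells 22 members were higher in BM-MSC than in ASC and 6 lower, where 53.9% of all genes were called, 25.8% higher and 28.1% lower. Of the sterol enzymes 13 were higher, 1 lower and 1 not called (median 1.17, all genes -0.04), while the fatty acid branch had 6 higher and 5 lower (median 0.18). The fatty acid median was 0.081 without the first wild-type ASC array and -0.0040 with all probes of a gene averaged. At least 2-fold differences were seen for 13 members, against 17.9% of all genes. This comparison and the next share no arrays with each other, but each shares its arrays with a comparison of null and wild-type cells above.

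Pmvk, at 2.96 and 2.93 in wild-type ASC and 4.81 and 4.78 in wild-type BM-MSC, differed most (1.85 ± 0.05, adjusted p = 4.42e-07). Nsdhl, an enzyme of sterol demethylation, read 0.34 and 0.39 against 2.23 and 2.11 (1.81 ± 0.06, adjusted p = 1.62e-06). Tm7sf2, a sterol reductase, read 2.32 and 2.22 against 3.77 and 3.77 (1.4999 ± 0.05, adjusted p = 1.96e-06). Sqle, squalene epoxidase, ran the other way, at 5.16 and 5.20 against 4.95 and 4.72 (-0.35 ± 0.09, adjusted p = 0.0137), though without the second wild-type array of ASC or BM-MSC its adjusted p was 0.0615 or 0.0533.

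In the fatty acid branch the wild-type tissues differed in both directions. Acss2 was higher in BM-MSC by 1.34 ± 0.05 (0.37 and 0.28 against 1.65 and 1.67), Scd1 by 1.19 ± 0.07 (1.57 and 1.43 against 2.75 and 2.62) and Me1 by 1.10 ± 0.05 (2.95 and 2.95 against 4.07 and 4.03). Fasn was lower in BM-MSC by 0.85 on the log2 scale (0.10 and 0.26 against -0.62 and -0.73, adjusted p = 0.000105), and Elovl5, Scd2, Acly and Acaca were lower as well. The calls of Acly (-0.21), Acaca (-0.18), Acacb (0.29) and Fads1 (0.30) were each lost when 1 of the wild-type arrays was left out, the second wild-type BM-MSC array for all 4. Insig1 was higher in BM-MSC by 0.94 ± 0.05 and Srebf2 by 0.66 ± 0.06, and Srebf1 was not called (-0.04 ± 0.08, adjusted p = 0.68).

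Between the null cultures of the 2 tissues, 21 members were higher in BM-MSC and 4 lower, where 55.4% of all genes were called, 25.9% higher and 29.6% lower. Sterol enzymes were higher in 13 of 15 cases (median 0.96, all genes -0.02), and 7 members differed at least 2-fold, against 19.0% of all genes. Nsdhl read 0.97 and 1.06 in null ASC and 2.86 and 2.86 in null BM-MSC (1.85 ± 0.06, adjusted p = 1.30e-06). Ebp read 5.83 on both null ASC arrays and 7.52 and 7.46 in null BM-MSC (1.66 ± 0.04, adjusted p = 4.00e-07). Tm7sf2 read 3.17 and 3.23 against 4.74 and 4.80 (1.57 ± 0.05, adjusted p = 1.41e-06). The 2 sterol enzymes that were lower were Fdft1 (-0.29 ± 0.06) and Sqle (-0.39 ± 0.09), which act one after the other at squalene. With both Fdft1 probes averaged its difference was 0.049 (adjusted p = 0.745), and without the second null BM-MSC array the adjusted p of Sqle was 0.0514. The call of Lss (0.34 ± 0.10) was lost without any single null array (adjusted p from 0.0931 to 0.104).

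In the fatty acid branch of the null cells Acss2 stood out, at 0.85 and 0.94 in ASC and 2.94 and 2.93 in BM-MSC (2.04 ± 0.05, adjusted p = 5.09e-07, 4.10-fold). Me1 was higher in BM-MSC by 0.99 ± 0.05 (3.24 and 3.24 against 4.25 and 4.22) and Elovl5 lower, at 4.08 and 4.20 against 3.60 and 3.54 (-0.57 ± 0.05, adjusted p = 0.00017). In all, 6 genes were higher, 2 lower and 4 not called, with a median of 0.13. Srebf1 was higher by 0.47 ± 0.08 and Stard4 by 0.26 ± 0.05, the latter turning to -0.0012 (adjusted p = 0.992) when both its probes were averaged.

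Ebp and Nsdhl lie on the X chromosome. Xist, the RNA of the inactive X, read 4.67 and 4.19 in wild-type ASC, 4.55 and 4.42 in null ASC, 2.06 and 2.20 in wild-type BM-MSC, -4.20 and -4.55 in null BM-MSC and -1.37 and -1.62 in the tumor line. The cultures therefore differed in Xist signal between tissues, between wild-type and null BM-MSC, and between null BM-MSC and the tumor line. The part of what underlies this in the differences of these 2 genes, or of any other member, was not tested.

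Of 7 adipocyte markers measured, 3 were higher and 1 lower in BM-MSC than in ASC of wild-type cells. Between null cells 2 were higher and 2 lower in BM-MSC. Of all genes 53.9% and 55.4% were called in these comparisons, in that order. The summed signal of the 10 adipocyte markers listed was 23161 to 27338% of the 75th percentile in ASC. It was 1411 to 2103% in BM-MSC and the tumor line. Most of the sum came from 1 gene, the lipase Lpl, which read 7.84 to 8.09 in ASC and 2.76 to 3.63 elsewhere. Pparg, a regulator of fat cell formation, was higher in BM-MSC, at 2.47 to 2.80 against -1.61 to -1.14 in ASC and the tumor line. Their part in the members' differences was not tested.

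**Figure D3:**
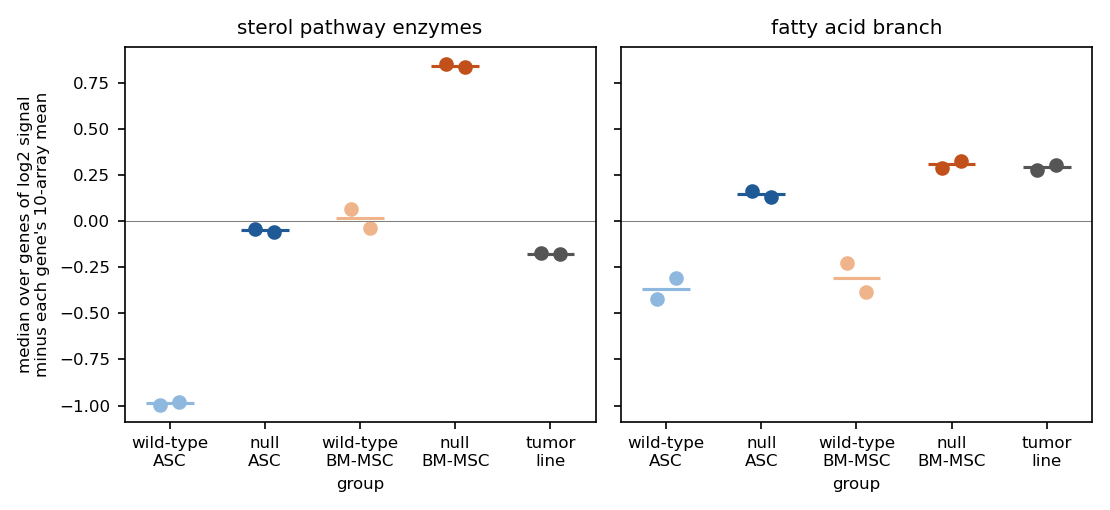
Median over the genes of a branch of log2 signal minus each gene's 10-array mean (y axis), for the 15 sterol enzymes (left) and the 12 genes of the fatty acid branch (right). Points are arrays and lines are group means; the sterol median runs from -0.995 and -0.98 in wild-type ASC to 0.85 and 0.83 in null BM-MSC, while both fatty acid medians of the tumor line (0.28 and 0.31) and of null BM-MSC (0.29 and 0.33) lie above all other arrays.

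Ordering the groups gene by gene restates the same 10 arrays and is no separate support. Both null BM-MSC arrays lay above the other 8 for 11 of 15 sterol enzymes and 4 of 12 fatty acid genes (Acss2, Fads1, Fads2 and Me1), against 10.6% of all genes. Both wild-type ASC arrays lay below the other 8 for 11 of 15 sterol enzymes, against 9.98% of all genes. They did so for 4 of 12 fatty acid genes (Acss2, Elovl6, Fads1 and Scd1). Wild-type BM-MSC was lowest for none of the sterol enzymes and for 5 fatty acid genes (Acaca, Acly, Elovl5, Fasn and Scd2), against 8.33%. Null ASC was highest for 4 members (Fdft1, Sqle, Elovl5 and Scd2), against 9.97%. The tumor line was highest for 6 of 12 fatty acid genes (Acaca, Acacb, Acly, Elovl6, Fasn and Scd1) and for the sterol enzymes Fdps and Pmvk, against 23.8%. It was lowest for 5 members (Fdft1, Hsd17b7, Ebp, Fads2 and Me1), against 5887 of 22596 genes tested.

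The tumor line was compared with null BM-MSC, the kind of cell it came from. The 2 branches parted here: 13 of 15 sterol enzymes were lower in the tumor line and 2 higher (median -0.94, all genes -0.05), whereas 6 of 12 fatty acid genes were higher and 6 lower (median 0.05). Over all members 10 were higher and 19 lower, and 10 differed at least 2-fold. The arrays differed widely between these groups, with 69.6% of all genes called, 34.5% higher, 35.1% lower and 28.9% at least 2-fold. The tumor line arrays were on a slide of their own, so slide and tumor line cannot be told apart in any comparison with it. The Rb1 and Trp53 signals given above were also lower in the tumor line than in null BM-MSC. Their part in the differences between these groups was not tested. Of 10 macrophage markers 5 were higher and 4 lower in the tumor line, with a summed signal of 1426 to 1519%. Tyrobp, a signalling adaptor of myeloid cells, read -1.92 and -1.95 in the tumor line and was not well above background in null BM-MSC. The part of these markers was not tested.

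The lowest values were those of Hsd17b7, Tm7sf2 and Ebp, which act after lanosterol. Hsd17b7, a ketosteroid reductase of sterol demethylation, read 3.02 and 2.92 in null BM-MSC and 0.70 and 0.65 in the tumor line. It was lower by a factor of 4.93 (-2.30 ± 0.06, adjusted p = 4.23e-07) at chr1:171883182-171883241 (mm9). Tm7sf2 read 4.74 and 4.80 against 2.54 and 2.59 (-2.21 ± 0.05, adjusted p = 2.73e-07, 4.62-fold). Both of its probes gave nearly this value, the second -2.22. Ebp read 7.52 and 7.46 against 5.57 and 5.55 (-1.93 ± 0.04, adjusted p = 1.63e-07). Dhcr7, Nsdhl and Cyp51, the lanosterol demethylase, changed by -1.24 ± 0.06, -1.07 ± 0.06 and -0.58 ± 0.06, so all 6 members that act on lanosterol and later sterols were lower.

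Before lanosterol the picture was mixed. Pmvk was higher in the tumor line, at 5.63 and 5.58 in null BM-MSC and 6.59 and 6.53 in the tumor line (0.95 ± 0.05, adjusted p = 3.98e-06), and its second probe gave 1.06. Fdps was higher by 0.46 ± 0.06 (6.69 and 6.71 against 7.18 and 7.15, adjusted p = 0.000456). Mvd, Mvk (mevalonate kinase), Lss, Hmgcs1 (HMG-CoA synthase) and Sqle were lower by 1.27, 1.12, 0.94, 0.89 and 0.88 on the log2 scale in that order. Fdft1 and Idi1 changed by -0.52 ± 0.06 and -0.40 ± 0.06, and the dimmer second probe of Fdft1 gave -1.47. Of the 7 other sterol genes, 4 were lower and none higher.

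The fatty acid branch divided evenly. Acaca read 4.58 and 4.62 in null BM-MSC and 5.46 and 5.45 in the tumor line (0.86 ± 0.04, adjusted p = 5.12e-06) at chr11:84215093-84215152 (mm9). Its 3 other probes gave 0.79 to 0.89. Acacb, at 0.76 and 0.89 against 1.64 and 1.65, was higher by 0.82 ± 0.09 (adjusted p = 0.000175), Elovl6 by 0.65 ± 0.05, Acly (ATP citrate lyase, which makes cytosolic acetyl-CoA from citrate) by 0.63 ± 0.05, and Scd1 and Fasn by 0.41 ± 0.07 and 0.40 ± 0.07. Elovl5 was lower, at 3.60 and 3.54 against 2.86 and 2.91 (-0.68 ± 0.05), and Fads1 changed by -0.77 ± 0.09. Acss2 read 2.94 and 2.93 against 1.44 and 1.49 (-1.47 ± 0.05, adjusted p = 1.30e-06). Me1 read 4.25 and 4.22 against 2.92 and 2.81 (-1.37 ± 0.05, adjusted p = 1.24e-06), and Fads2 1.78 and 1.73 against 0.36 and 0.49 (-1.33 ± 0.09, adjusted p = 1.99e-05). Thus the 2 sources of cytosolic acetyl-CoA among the members, Acly and Acss2, went opposite ways, as did the desaturases of saturated (Scd1) and polyunsaturated (Fads1, Fads2) fatty acids. The second desaturase of saturated fatty acids, Scd2, was lower (-0.30 ± 0.05, adjusted p = 0.0016).

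Insig1, at 0.29 and 0.30 in null BM-MSC and 0.95 and 0.92 in the tumor line, was higher by 0.64 ± 0.05 (adjusted p = 4.59e-05), opposite to most sterol enzymes. Srebf2 was higher by 0.28 ± 0.06 (2.02 and 1.96 against 2.23 and 2.33, adjusted p = 0.00442). Srebf1, at -1.04 and -1.08 against -1.14 and -1.12, was not called (-0.07 ± 0.08, adjusted p = 0.438), nor was Stard4, at 2.41 and 2.45 against 2.37 and 2.29 (-0.10 ± 0.05, adjusted p = 0.113). Of the 4 genes of SREBP processing, Insig2 was higher by 1.76 ± 0.08 and Scap lower by 0.86 on the log2 scale (adjusted p = 3.63e-05).

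**Figure D4:**
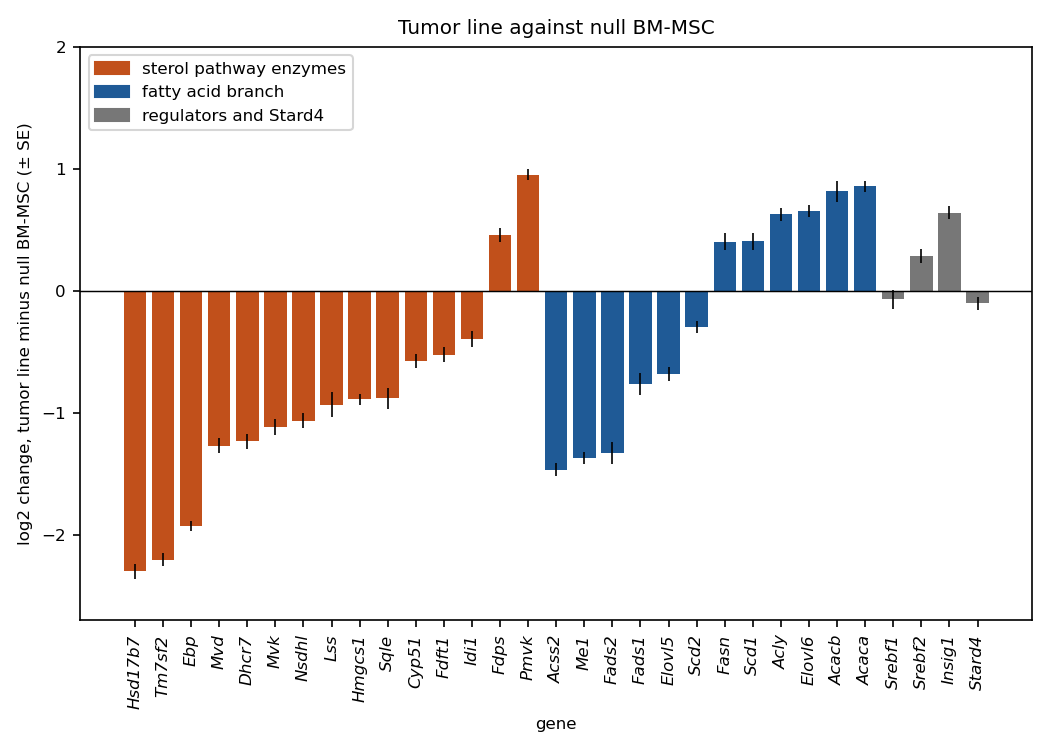
Log2 change from null BM-MSC to the tumor line (bars, ± SE, 2 arrays a group), sorted within the sterol enzymes (orange) and the fatty acid branch (blue), with the regulators and Stard4 in grey. The orange bars run from -2.30 (Hsd17b7) to 0.95 (Pmvk) with only Fdps and Pmvk above 0, and the blue bars divide 6 below and 6 above 0.

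Against wild-type BM-MSC the tumor line had 15 members higher and 10 lower, where 67.9% of all genes were called, 32.8% higher, 35.1% lower and 28.1% at least 2-fold. Of the members, 11 differed at least 2-fold. The fatty acid branch was higher in 7 and lower in 3 of 12 genes (median 0.51, all genes -0.06), and the sterol enzymes higher in 4 and lower in 7 of 15 (median -0.12). Without the first wild-type BM-MSC array that sterol median was -0.076. Scaling to the array median turned it to 0.0059, ended the calls of Hmgcs1, Lss and Nsdhl in that branch, and gave 15 members higher and 5 lower.

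Fasn, at -0.62 and -0.73 in wild-type BM-MSC and 1.04 and 1.09 in the tumor line, differed by 1.74 ± 0.07 (adjusted p = 2.44e-06, 3.34-fold). Acaca read 3.94 and 3.89 against 5.46 and 5.45 (1.55 ± 0.04, adjusted p = 4.59e-07), and Scd1 2.75 and 2.62 against 4.05 and 4.08 (1.38 ± 0.07, adjusted p = 5.70e-06). Acly and Elovl6 were higher by 1.28 ± 0.05 and 1.14 ± 0.05. Me1 was lower, at 4.07 and 4.03 against 2.92 and 2.81 (-1.19 ± 0.05, adjusted p = 2.28e-06). Fasn, Acaca, Acly, Elovl6 and Scd1 were thus higher in the tumor line than in either kind of BM-MSC, and Me1 was lower than in both.

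The called sterol enzymes, 11 of 15, went both ways. Pmvk (4.81 and 4.78 against 6.59 and 6.53) was higher by 1.76 ± 0.05 (adjusted p = 3.45e-07) and Fdps (5.69 and 5.60 against 7.18 and 7.15) by 1.52 ± 0.06 (adjusted p = 1.74e-06). Hsd17b7 (2.18 and 2.12 against 0.70 and 0.65) was lower, at -1.48 ± 0.06 (adjusted p = 2.51e-06), as were Tm7sf2 (-1.21 ± 0.05) and Ebp (-1.18 ± 0.04). Dhcr7, Mvd, Fdft1 and Sqle were not called, with values of 0.09, -0.12, -0.12 and -0.04. Without the first array of either group, the calls of Hmgcs1 (-0.14 ± 0.04) and Lss (-0.32 ± 0.10), and in the other branch those of Acss2 (-0.19 ± 0.05) and Fads2 (-0.27 ± 0.09), were each lost (adjusted p up to 0.911, 0.28, 0.585 and 0.722 over all alternatives). Srebf1, Srebf2 and Insig1 were higher by 0.79 ± 0.08, 0.67 ± 0.06 and 0.46 ± 0.05, and Stard4 by 0.90 ± 0.05 (1.47 and 1.39 against 2.37 and 2.29, adjusted p = 8.88e-06).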

How the data were processed

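Intensity values are deposited per spot. Per the file headers, Feature Extraction 10.7.3.1 wrote them after subtracting a background. Probe positions are on mm9 per the file headers. The deposited series matrix holds values that fit a log2 scale (medians 5.04 to 5.06). How it was normalized and centred is not stated, and limma is named in the submitters' processing notes without a role.

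For each array, outlier spots were left out, log2 processed signals were averaged per probe, and the 75th percentile of non-control spots (484 to 622 units) was subtracted. Probes were named through RefSeq, and the brightest probe stood for a gene. The test kept genes whose probe stood well above background on both duplicates of a group, in 1 limma 3.58.1 model (R 4.3.3) of 5 groups with 7 contrasts. Two-sided p-values were adjusted by Benjamini-Hochberg, with a threshold of 0.05. They measure the spread between duplicate cultures. The sample titles number the duplicates and name no animal or separate derivation, so spread between those is not shown to be covered. Precision is also limited by having 10 arrays, 2 a group. On simulated data of 22596 genes for null against wild-type BM-MSC, 100 genes were changed by 0.5, 100 by 1 (log2) and no others. Of these 45 and 62 were recovered, with 7 false calls. The real comparison called 39.5% of genes, so these rates do not carry over to it.

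Members and lists were chosen with earlier results of these data known. All members may be named. Array values were given for up to 3 members with the largest called changes per comparison and branch, for the regulators and for Stard4, and up to 3 called genes were named per further list. Acacb, Ebp, Sqle, Fabp4 and Tyrobp were added after their values were seen. Alternatives were other background corrections, scalings, probe summaries, filters and fits, and leaving out each array. Duplicate numbers did not pair the cultures (correlations of deviations from -0.12 to 0.12). Probe positions within exons or untranslated parts were not used here. Some genes of the further lists are counted but not reported by name here.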

Additional observations from a re-analysis of the deposited data

Results flagged for a closer look

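The change from wild-type to null cells differed between BM-MSC and ASC for 15 of the 31 members, by the interaction term of the limma model. Values are the change in BM-MSC minus that in ASC, on the log2 scale. The enzyme genes larger in BM-MSC were Ebp (0.76), Acss2 (0.70), Fasn (0.66) and Mvd (0.43), together with the regulator Srebf1 (0.52). Those larger in ASC were the sterol enzymes Lss (-0.95), Pmvk (-0.89), Idi1 (-0.50), Cyp51 (-0.44), Mvk (-0.31) and Fdps (-0.28), the fatty acid genes Scd1 (-0.81) and Elovl6 (-0.76), and the regulators Insig1 (-0.86) and Srebf2 (-0.57). For Lss, Pmvk, Idi1, Fdps, Cyp51, Mvk, Mvd, Acss2, Fasn, Scd1, Elovl6, Srebf1 and Srebf2 both tissues changed in the same direction and the size differed. For Ebp the change was called in BM-MSC only. For Insig1 the signs were opposite, but its fall in BM-MSC was small (-0.18) and that call was lost in 13 of 21 alternatives. The calls of Fdps (adjusted p = 0.044) and Mvk (adjusted p = 0.0473) were the least stable and were lost in 15 and 13 of 21 alternatives. For Fdps these included leaving out any single array except the second null ASC array, and for Mvk any single BM-MSC, wild-type ASC or tumor line array or the first null ASC array.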

How the results depend on the processing

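Every count of called members stayed within 1.5 times its value under all alternatives run, except that scaling to the array median left 9 of the 15 differences between tissues. That scaling also moved the median of all genes by over 0.1 from -0.02 to 0.08 between null BM-MSC and ASC and, in the tumor line comparisons, from -0.05 to 0.05 against null and from -0.06 to 0.07 against wild-type BM-MSC. It gave 21 members higher and 1 lower between null BM-MSC and ASC. The cause of the moves below was not tested. With it the sterol medians became 0.83 (null ASC), -0.0078 (difference of effects), 1.06 (null BM-MSC against ASC), -0.83 and 0.0059 (tumor line against null and wild-type BM-MSC), and the fatty acid medians 0.16 (difference of effects), 0.23 (null BM-MSC against ASC), 0.16 and 0.64 (tumor line). With normexp the sterol medians were 0.78 (null BM-MSC), 0.93 (null BM-MSC against ASC) and -0.85 (tumor line against null). With quantile normalization they were 1.01, -0.996 and -0.17 (null BM-MSC against ASC, tumor line against null and wild-type), and the fatty acid median of the tumor line against null BM-MSC was -0.062. With the series matrix the sterol medians were 0.86 and 0.92 (null BM-MSC and ASC) and 1.02 (null BM-MSC against ASC), and that fatty acid median was -0.031. With the mean of all probes the sterol medians were 1.16 (null ASC), -0.26 (difference of effects), 1.25 (wild-type BM-MSC against ASC) and -0.998 (tumor line against null), and the fatty acid medians -0.0040 (wild-type BM-MSC against ASC) and 0.59 (tumor line against wild-type). It turned Fdft1 (0.049) and Stard4 (-0.0012) between null BM-MSC and ASC, and Fads2 (0.045) between tumor line and wild-type BM-MSC, none of them called then. Leaving out 1 array at a time, the sterol medians ranged from 0.78 to 0.87 (null BM-MSC), 0.87 to 0.92 (null ASC), -0.16 to -0.051 (difference), 0.93 to 1.00 and 1.12 to 1.23 (BM-MSC against ASC, null and wild-type), -0.94 to -0.93 and -0.17 to -0.076 (tumor line). The fatty acid medians ranged from 0.72 to 0.77, 0.60 to 0.74, 0.015 to 0.11, 0.11 to 0.15, 0.081 to 0.23, 0.030 to 0.054 and 0.46 to 0.56 in the same order. With the replicate number as a block, 30 members were called in BM-MSC null against wild type, where Insig1 was lost, and 16 in the difference of effects, where Acacb was added. The block changed no other call. Signal over background limits none of the members, since all probes used were well above it.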

Other observations

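Of 8 genes of glyceride synthesis and storage, none rose and 2 fell in null BM-MSC, and 1 rose and 4 fell in null ASC, where 39.5% and 41.5% of all genes were called in either direction. Dgat2, which makes triglyceride, fell in null BM-MSC (-1.43 ± 0.05, adjusted p = 1.15e-05) and was higher in the tumor line than in null BM-MSC by the same size (1.43 ± 0.05, adjusted p = 1.36e-06). The lipid droplet coat gene Plin2 fell by 0.92 on the log2 scale in null ASC and was higher by 1.44 ± 0.04 in the tumor line than in null BM-MSC.

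Of the genes of LXR and sterol efflux, Nr1h3, which encodes the sterol-sensing receptor LXR alpha, fell in null BM-MSC (-1.12 ± 0.13) and in null ASC (-1.44 ± 0.13) and was lower still in the tumor line than in null BM-MSC (-3.46 ± 0.13, adjusted p = 1.65e-06). The sterol exporter Abca1 rose in null BM-MSC (1.13 ± 0.14) and fell in null ASC (-0.98 ± 0.14). Of 8 measured genes of citrate and NADPH supply, 2 rose and 2 fell in null BM-MSC, and 2 rose and 1 fell in null ASC. Of all genes 39.5% and 41.5% were called in these comparisons. In that list Acsl3, which activates fatty acids with coenzyme A, rose in null BM-MSC (1.42 ± 0.11) and null ASC (1.07 ± 0.11). Mid1ip1, which promotes the activity of acetyl-CoA carboxylase, rose by 1.24 ± 0.05 in null BM-MSC and by 0.19 ± 0.05 in null ASC. Scap, the escort of SREBP, fell in both (-0.34 ± 0.07 and -0.73 ± 0.07).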
